A study of Mus musculus with 10 samples.

Results

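The genes Meis1, Meis2, Pbx3 and Mn1, which encode partners of HOX proteins or a co-regulator linked to the same leukaemias, had 64 of the 103446 regions of open chromatin found in mouse haematopoietic stem and progenitor cells (HSPCs). Peaks of 8 ATAC-seq libraries that shared at least 1 bp were merged into regions, and a region belonged to a gene if its midpoint lay inside the gene or if that gene was the nearest protein-coding gene within 100 kb. By this rule 31 regions belonged to Meis1, 6 to Meis2, 7 to Pbx3 and 20 to Mn1. ATAC-seq marks open chromatin through the Tn5 transposase, which inserts sequencing adapters where DNA is accessible. The HSPCs were lineage-negative bone marrow cells of C57BL/6 mice, flushed from femurs and tibias and depleted of mature cells with a lineage kit after red-cell lysis. Each of 4 genotypes had 2 biological replicates. The double mutant (DM) was Npm1flox-cA/+;Flt3ITD/+;Mx1-Cre+, the Flt3-ITD group was Flt3ITD/+, the Npm1c group was Npm1flox-cA/+;Mx1-Cre+, and the control genotype was wild type (WT). Npm1c is a conditional frameshift allele of nucleophosmin, switched on by a Cre that an interferon-inducible promoter drives, and no Cre is named for the Flt3-ITD and WT groups, so the Npm1c allele and Mx1-Cre cannot be told apart. Flt3-ITD is an internal tandem duplication that keeps the FLT3 receptor kinase active. Ages, and whether animals were pooled, are not given in the labels.

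MEIS and PBX proteins are homeodomain proteins of the TALE class that bind DNA together with HOX proteins and sharpen their choice of sites. Meis1 sustains haematopoietic stem cells and, with Hoxa9, drives leukaemia in mice, while Meis2 is its close relative and Pbx3 is a PBX partner. MN1 carries no homeodomain and acts as a transcriptional co-regulator whose overexpression causes myeloid leukaemia in mice. Human leukaemias with mutant NPM1 typically express HOXA and HOXB genes together with MEIS1 and PBX3, and the DM and Npm1c mice carry a mouse counterpart of that mutation.

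The promoter windows of Meis1 and Meis2 differed in how many libraries called them, so their sequences are shown. Each line gives the 250 bases before the transcription start, 5′ to 3′ on the gene's own (minus) strand, from RefSeq on GRCm38.p6. Capitals mark motif matches found on either strand. The Meis1 window is chr11:19018970-19019219 and the Meis2 window is chr2:116064620-116064869. Both windows lie inside the interval of their gene, so each belongs to 1 internal start and other starts were not examined.
Meis1: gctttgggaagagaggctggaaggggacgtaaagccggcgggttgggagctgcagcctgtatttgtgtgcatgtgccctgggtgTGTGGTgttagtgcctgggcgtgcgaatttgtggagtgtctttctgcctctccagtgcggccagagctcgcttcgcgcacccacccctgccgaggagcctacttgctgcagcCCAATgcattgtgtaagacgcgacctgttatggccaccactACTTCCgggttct
Meis2: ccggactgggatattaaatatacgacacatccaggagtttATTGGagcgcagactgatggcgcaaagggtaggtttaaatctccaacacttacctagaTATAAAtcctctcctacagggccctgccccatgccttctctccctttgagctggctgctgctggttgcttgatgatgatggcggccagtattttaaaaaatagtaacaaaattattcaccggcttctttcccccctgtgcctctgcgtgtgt
All 250 bases of the Meis1 window lay under a peak in each of the 8 libraries. Of the Meis2 window, peaks covered 0 and 0 bases in DM, 0 and 0 in Flt3-ITD, 250 and 250 in Npm1c, and 170 and 0 in WT. This Meis2 window was thus called in both Npm1c libraries and in none of the 4 libraries with the Flt3-ITD allele, and the WT libraries disagreed. The region nearer the gene's upper end, chr2:116065361-116067473, was also called in both WT libraries and in DM replicate 1. Among the 32851 promoters of the table, a peak overlapped between 38.7% (Flt3-ITD replicate 1) and 44.5% (WT replicate 1). The Meis1 window had a GC content of 59.6% and 13 CpG dinucleotides, and the Meis2 window 47.6% and 7, beside medians of 52.4% and 6 over all promoters.

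Both promoters held a CCAAT box, read on the gene's strand in Meis1 and on the opposite strand in Meis2, as did 33.8% of all promoters of the table. Meis1 also held TGTGGT, the RUNX motif, and GGAAGT, an ETS motif on the opposite strand, which were present in 14.0% and 19.7% of all promoters. Meis2 also held TATAAA, the TATA box, present in 12.4%. The other letters searched on both strands gave no match in either window, namely TGACAG for MEIS, TGATTNAT for PBX with HOX, GGGCGG for the GC box, AGATAA for GATA factors and TGANTCA for AP-1. Their shares among all promoters were 15.9%, 2.82%, 32.7%, 9.99% and 6.75%. These matches describe letters only. No sequence is shown for Pbx3 and Mn1.

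The deposited lists held between 43825 peaks (Flt3-ITD replicate 1) and 80916 peaks (WT replicate 1), covering 24.2 to 50.2 Mb, and the reads behind them are not given, so the depth of each library is unknown. All 6 stem and progenitor marker genes had called regions in every library, with 55 to 117 of their 142 regions called. Regions of markers of other cells were called too, namely 1 to 12 of 13 at B-cell genes, 3 to 6 of 9 at T-cell genes, 4 to 11 of 11 at erythroid genes, 2 to 6 of 8 at neutrophil genes and 11 to 30 of 43 at stroma and endothelium genes. No region belonged to Cd79a, Cd3g, Hba-a1 or Ly6g, and the part of these cells in the results was not tested. In these bulk samples, fewer cells of a type and less open chromatin per cell cannot be told apart.

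Of the 64 regions, 12 were called in all 8 libraries (18.8%, against 25.3% of all regions) and 15 in a single library (23.4%, against 18.5%), and their median width was 414 bp, against 435 bp for all. Inside their gene lay 35 of the 64. Meis1 had 24 of its 31 regions inside the gene, Meis2 3 of 6, Pbx3 2 of 7 and Mn1 6 of 20, so Mn1 and Pbx3 were mostly described by regions outside their bodies. The libraries of a genotype disagreed on 13 of the 38 regions called in either DM library, 9 of 25 in Flt3-ITD, 10 of 38 in Npm1c and 13 of 44 in WT. The share was 34.2%, 36.0%, 26.3% and 29.5% of the member regions, against 23.5%, 23.0%, 19.5% and 27.8% of all regions. All 64 regions can be seen in the map of covered bases by library.

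**Figure D1:**
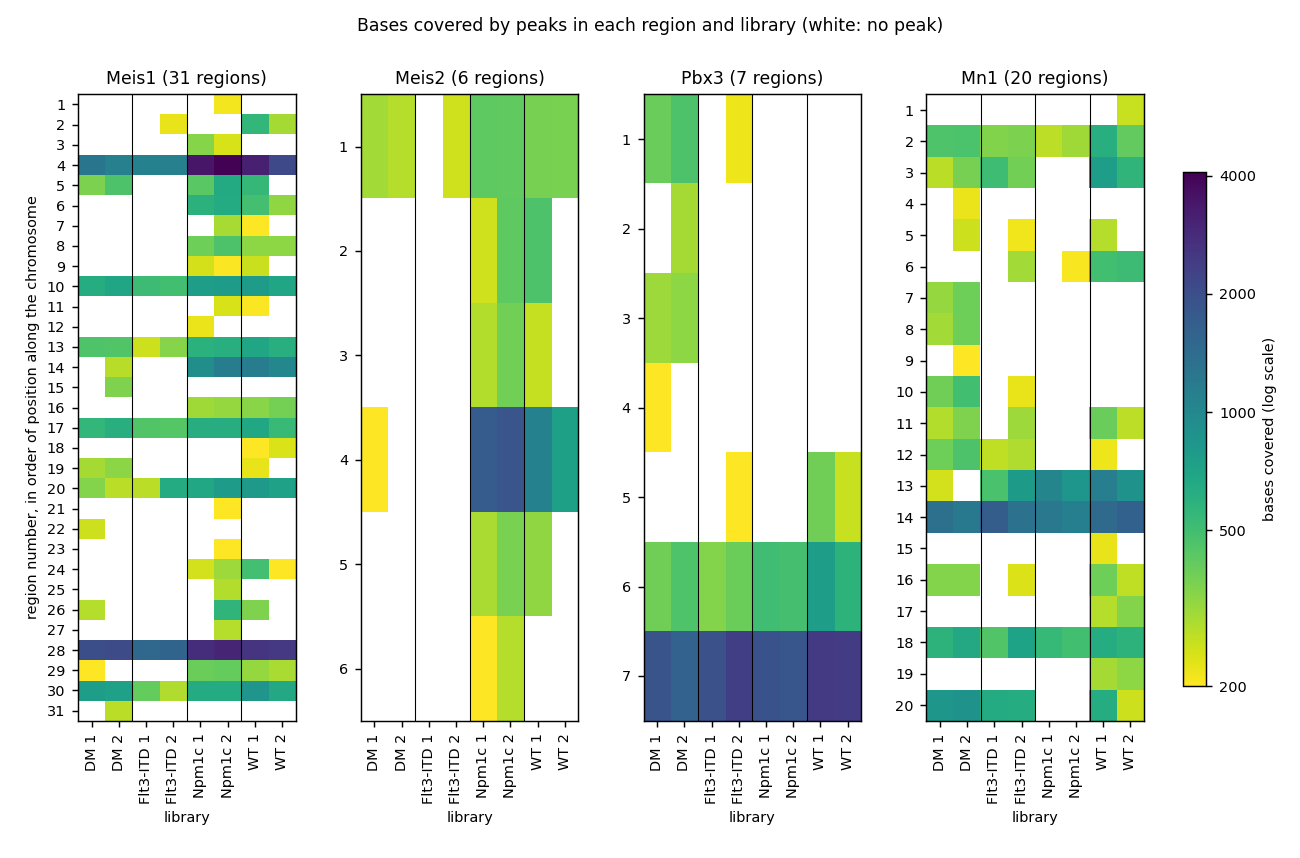
Bases covered by peaks (colour, log scale) in each of the 64 regions (rows, numbered along each gene from the lower coordinate) in the 8 libraries (columns, DM, Flt3-ITD, Npm1c, WT); white cells have no peak. Within Meis1 a set of rows is white in the DM and Flt3-ITD columns, and within Mn1 another set is white in the Npm1c columns.

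The 4 genes did not follow one order across genotypes. Meis1 had 12 and 12 regions called in DM, 7 and 8 in Flt3-ITD, 17 and 24 in Npm1c, and 21 and 15 in WT. Meis2 had 2 and 1 in DM, 0 and 1 in Flt3-ITD, 6 and 6 in Npm1c, and 5 and 2 in WT. At both MEIS genes the lowest counts were in Flt3-ITD, which overlapped with DM at Meis2 but not at Meis1, and Npm1c overlapped with WT at Meis1 but not at Meis2. Pbx3 had 5 and 5 in DM, 2 and 4 in Flt3-ITD, 2 and 2 in Npm1c, and 3 and 3 in WT. Mn1 had 12 and 14 in DM, 7 and 12 in Flt3-ITD, 4 and 5 in Npm1c, and 14 and 12 in WT. Mn1 was thus lowest in Npm1c with no overlap with any other genotype, and Pbx3 was highest in DM. Over all regions of the series the share called was 50.4% and 58.0% in DM, 38.7% and 46.0% in Flt3-ITD, 57.0% and 63.1% in Npm1c, and 75.4% and 58.2% in WT, so the order of Mn1 differed from that of the lists as a whole, in which Npm1c was above Flt3-ITD.

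Scaled to all bases under peaks in each library, Meis1 peaks took 247 and 224 bases per Mb of covered sequence in DM, 185 and 171 in Flt3-ITD, 343 and 396 in Npm1c, and 302 and 274 in WT. On this scale the order at Meis1 was Npm1c, WT, DM and Flt3-ITD, and no neighbouring genotypes overlapped. For Mn1 the values were 192 and 198 in DM, 181 and 194 in Flt3-ITD, 77.9 and 68.7 in Npm1c, and 155 and 158 in WT. Npm1c stood lowest, WT next, and DM and Flt3-ITD overlapped. Meis2 took 16.8 and 8.23 in DM, 0 and 8.34 in Flt3-ITD, 79.8 and 86.1 in Npm1c, and 50.2 and 27.7 in WT, so DM and Flt3-ITD overlapped below WT, and Npm1c was above WT. Pbx3 took 105 and 92.7 in DM, 94.2 and 106 in Flt3-ITD, 61.1 and 53.6 in Npm1c, and 71.6 and 82.3 in WT. Here again DM and Flt3-ITD overlapped, above WT, and Npm1c was lowest. These orders were not tested: between 2 libraries and 2 an exact two-sided permutation p cannot go below 0.333.

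**Figure D2:**
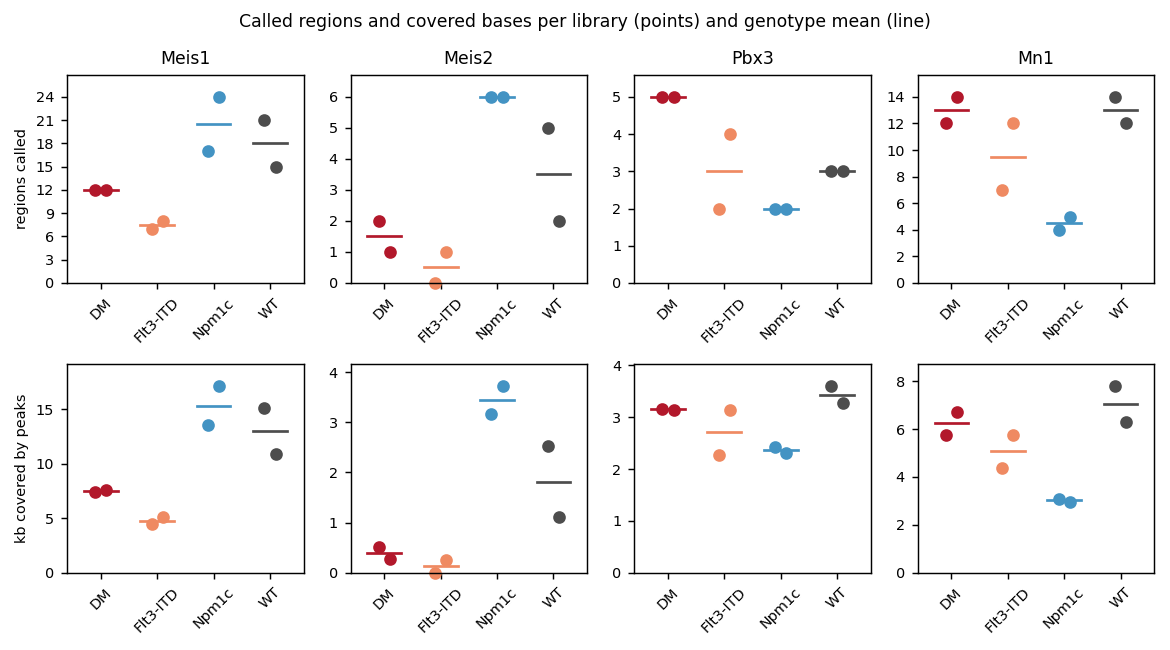
Regions called (top, number) and kilobases covered by peaks (bottom) for each of the 4 genes, with 1 point per library and a line at the mean of the 2 libraries of each genotype. The Mn1 points of Npm1c, 4 and 5 regions, lie below those of all other genotypes, while the Meis1 points of Flt3-ITD, 7 and 8 regions, are the lowest of that gene.

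At Meis1 (chr11:18880428-19019651 on mm10), 4 intragenic regions had a peak in every Npm1c and WT library and none in any DM or Flt3-ITD library. Over all regions of the series, 8.38% had this pattern, against 6.25% of the 64 members and 12.9% of the 31 Meis1 regions. It was thus not more common among the members as a whole, and no region of Meis2, Pbx3 or Mn1 had it. The region chr11:18885576-18886225 had 0 and 0 bases covered in DM, 0 and 0 in Flt3-ITD, 586 and 639 in Npm1c, and 492 and 330 in WT. At chr11:18904206-18904672 the 4 DM and Flt3-ITD libraries had no peak, while Npm1c had 390 and 467 bases and WT 334 and 334. The other two of this pattern were chr11:18963187-18963572, with 308 and 324 bases in Npm1c and 344 and 376 in WT, and chr11:19014498-19014989, with 247 and 312 in Npm1c and 491 and 200 in WT. All 4 were thus lost in Flt3-ITD against WT, in DM against WT and in DM against Npm1c, where lost means called in neither library of the first genotype and both of the second, and gained means the opposite. Another region, chr11:18957057-18958230, came close to this pattern, with 0 and 276 bases in DM, 0 and 0 in Flt3-ITD, 926 and 1142 in Npm1c, and 1135 and 1014 in WT. Stem and progenitor markers ran in the same direction, with 57 and 72 of 142 regions called in DM, 55 and 66 in Flt3-ITD, 83 and 90 in Npm1c, and 117 and 83 in WT. Erythroid markers had 5 and 4 of 11 in DM, 5 and 6 in Flt3-ITD, 11 and 9 in Npm1c, and 9 and 7 in WT. Over all regions of the series the share called was 50.4% and 58.0% in DM and 38.7% and 46.0% in Flt3-ITD. It was 57.0% and 63.1% in Npm1c, and 75.4% and 58.2% in WT. The marker counts were not scaled to list length, and the part of either marker set in the Meis1 pattern was not tested.

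Other Meis1 regions changed in other combinations of genotypes. The region chr11:18996325-18996602, inside the gene, was called in WT alone, with 202 and 237 bases, and was lost in all 3 mutant genotypes. Next to it, chr11:18996782-18997139 had 299 and 339 bases in DM, none in Flt3-ITD or Npm1c, and 221 and 0 in WT, and was gained in DM against Npm1c and against Flt3-ITD. Below the gene, chr11:18874764-18875154 was called in Npm1c alone, with 346 and 240 bases, and was gained against WT and lost in DM against Npm1c. The neighbouring chr11:18871440-18871996 had 0 and 0 bases in DM, 0 and 220 in Flt3-ITD, 0 and 0 in Npm1c, and 557 and 300 in WT, and was lost in DM and in Npm1c against WT. The region with the widest peaks by mean, chr11:19018002-19021114, overlapped the gene's upper end and held the promoter shown above. It had 1995 and 2030 bases in DM, 1480 and 1556 in Flt3-ITD, 2769 and 3008 in Npm1c, and 2585 and 2490 in WT. The genotypes did not overlap in these unscaled bases. With each library centred on its median, as described below, the log2 fold in DM against WT was -0.008. A peak was present in each of the 8 libraries for 7 of the 31 regions, and in a single library for 9.

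Meis2 (chr2:115861264-116067537) was close to uncalled in the libraries with the Flt3-ITD allele. Its region with the widest peaks, chr2:116065361-116067473 inside the gene, had 200 and 0 bases in DM, 0 and 0 in Flt3-ITD, 1709 and 1849 in Npm1c, and 1092 and 735 in WT. Npm1c was above WT there, and 1 DM library held a peak of the smallest width listed. The region of the promoter, chr2:116064530-116064930, had no base covered in DM or Flt3-ITD, 284 and 379 in Npm1c, and 260 and 0 in WT. On either side of it, chr2:116063883-116064397 and chr2:116071507-116071880 were likewise called in both Npm1c libraries and in WT replicate 1 alone, and these 3 regions were lost in DM against Npm1c. The farthest region, chr2:116101263-116101563, was called in Npm1c alone, with 200 and 281 bases, which made it gained in Npm1c against WT and lost in DM against Npm1c. The region chr2:115855812-115856242, below the gene, was the one called outside this pattern, with 305 and 279 bases in DM, 0 and 248 in Flt3-ITD, 421 and 420 in Npm1c, and 371 and 366 in WT. No Meis2 region was called in all 8 libraries. Between libraries with and without the Flt3-ITD allele, the erythroid and stem-cell marker counts given for Meis1 run in the same direction here. They are not scaled to list length. Npm1c was above WT at Meis2, while stem and progenitor counts were 83 and 90 in Npm1c and 117 and 83 in WT. Erythroid counts were 11 and 9 in Npm1c and 9 and 7 in WT. The part of either marker set was not tested.

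At Pbx3 (chr2:34171457-34372045) the gene's upper end was open in every library and the changes lay outside or deep inside the gene. The region chr2:34371018-34373525, which spans that end and had the widest peaks, had 1866 and 1581 bases in DM, 1929 and 2335 in Flt3-ITD, 1912 and 1830 in Npm1c, and 2445 and 2434 in WT. In these unscaled bases WT was highest and Flt3-ITD next, and DM and Npm1c overlapped. With each library centred on its median, as described below, Flt3-ITD against WT was 0.26 ± 0.15 on the log2 scale (limma adjusted p = 0.244). Below the gene, chr2:34139804-34140137 was called in DM alone, with 311 and 334 bases, and was gained against all 3 other genotypes. The region chr2:34076300-34076773 had 399 and 467 bases in DM, 0 and 217 in Flt3-ITD, and none in Npm1c or WT, and was gained in DM against WT and against Npm1c. A further pair of regions below the gene was called in 1 DM library each. Inside the gene, chr2:34249545-34249929 had 0 and 0 bases in DM, 0 and 200 in Flt3-ITD, 0 and 0 in Npm1c, and 385 and 257 in WT, and was lost in DM and in Npm1c against WT. With the distance limit at 50 kb, 1 of the 2 regions gained in DM was counted, and with regions inside the gene only, 0.

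Mn1 (chr5:111417300-111457030) showed the opposite contrast to the MEIS genes, with regions absent from Npm1c and present in DM. The region at its lower end, chr5:111416667-111417570, had 274 and 370 bases in DM, 508 and 381 in Flt3-ITD, 0 and 0 in Npm1c, and 763 and 568 in WT. The farthest region, chr5:111553307-111554189, had 825 and 874 bases in DM, 642 and 634 in Flt3-ITD, 0 and 0 in Npm1c, and 630 and 251 in WT. Both were thus called in every library but the Npm1c ones, lost in Npm1c against WT and gained in DM against Npm1c. Between them, chr5:111502042-111502480 had 284 and 358 bases in DM, 0 and 313 in Flt3-ITD, none in Npm1c, and 398 and 271 in WT. Likewise, chr5:111511929-111512329 had 351 and 350 bases in DM, 0 and 235 in Flt3-ITD, none in Npm1c, and 389 and 266 in WT. Both were lost in Npm1c against WT and gained in DM against Npm1c.

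Some Mn1 regions were called in DM or in WT alone. Inside the gene, chr5:111440265-111440655 had 323 and 391 bases and chr5:111449626-111450014 had 305 and 389 bases in DM, and neither had a peak in any other genotype. Both were gained in DM against each of the other 3. Above the gene, chr5:111484910-111485406 had 386 and 497 bases in DM, 0 and 221 in Flt3-ITD, and none in Npm1c or WT, and was gained against WT and Npm1c. In WT alone were chr5:111519476-111519844, with 280 and 352 bases, and chr5:111542152-111542494, with 299 and 334, which were lost in all 3 mutants. The region with the widest peaks, chr5:111508658-111510585 above the gene, was called everywhere, with 1347 and 1214 bases in DM, 1689 and 1322 in Flt3-ITD, 1229 and 1116 in Npm1c, and 1440 and 1602 in WT. B-cell markers had 5 and 12 of 13 regions called in DM and 4 and 4 in Flt3-ITD. They had 1 and 1 in Npm1c, and 3 and 1 in WT, where Mn1 had 14 and 12 of 20 called. In the same order of genotypes, T-cell markers had 3 and 6, 3 and 3, 3 and 3, and 5 and 3 of 9. Neutrophil markers had 5 and 6, 2 and 3, 4 and 4, and 6 and 2 of 8. Stroma and endothelium markers had 19 and 26, 11 and 12, 15 and 19, and 30 and 20 of 43. The part of these marker sets in the Mn1 pattern was not tested.

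**Figure D3:**
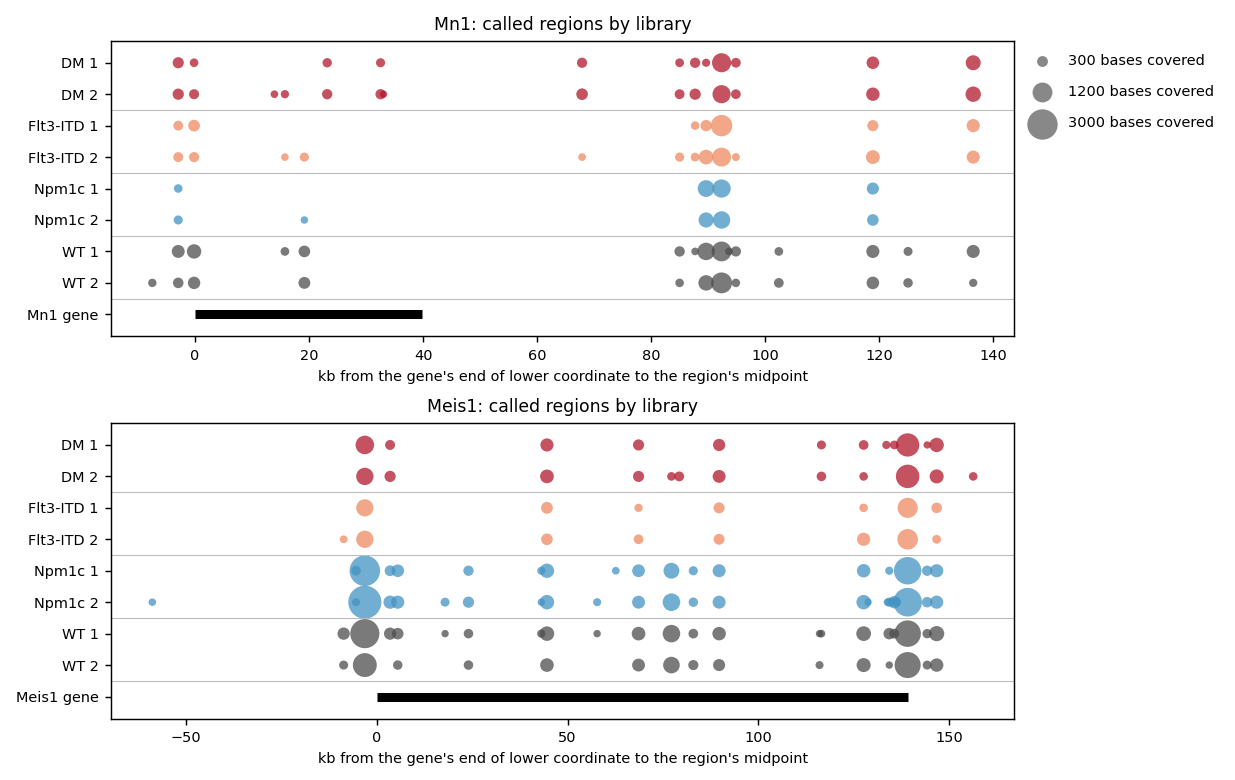
Called regions of Mn1 and Meis1 by library (rows, DM above Flt3-ITD, Npm1c and WT) against the distance in kilobases from the gene's lower-coordinate end, with dot area standing for bases covered. The Npm1c rows of Mn1 have 4 and 5 dots, and the DM and Flt3-ITD rows of Meis1 have gaps inside the gene where Npm1c and WT have dots.

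Between DM and Npm1c the 4 genes changed in different directions. DM gained 11 of the 64 regions (8 at Mn1, 2 at Pbx3, 1 at Meis1), where 12.6% of all regions were gained, and lost 10 (6 at Meis1, 4 at Meis2), where 19.3% were lost. By this count the changes at Mn1 and Pbx3 were gains, those at Meis2 losses and 6 of 7 at Meis1 losses. Mn1 had 1 loss with lists of equal length, without peaks under 250 bp, without DM replicate 1 and without Npm1c replicate 1, and the Meis1 gain became 3 without DM replicate 1 and 2 without DM replicate 2. In the main count the 8 gains were 40% of the Mn1 regions and the 4 losses 66.7% of the Meis2 regions. The 19.4% of Meis1 regions lost was close to the share over all regions. The 8 gains at Mn1 became 7 with lists of equal length and 2 with regions inside the gene only. The Meis1 losses became 13 without Npm1c replicate 1, and the 4 Meis2 losses became 1 with lists of equal length and 2 inside the gene. Without a library of a compared genotype the rule asks for fewer libraries. Here and below, such counts could thus only stay or rise unless merging changed.

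Against WT, Npm1c gained 2 regions (1 at Meis1, 1 at Meis2; 2.71% of all regions were gained) and lost 9 (6 at Mn1, 2 at Meis1, 1 at Pbx3; 6.26% of all). The Mn1 losses numbered 3 with lists of equal length, 2 with a distance limit of 50 kb and 0 inside the gene. The single Meis1 gain became 3 with lists of equal length, 6 without Npm1c replicate 1, 2 without Npm1c replicate 2 and 3 without WT replicate 1, and the single Meis2 gain became 2 without Npm1c replicate 2 and 4 without WT replicate 1. The Meis1 gain was 0 without peaks under 250 bp and 0 inside the gene, and the Meis2 gain was 0 in both and 0 with lists of equal length. Flt3-ITD gained 0 regions against WT (0.852% of all) and lost 10 (7 at Meis1, 2 at Mn1, 1 at Meis2; 16.2% of all), which is 15.6% of the members and near the share over all regions. The Meis1 losses were 1 with lists of equal length and 13 without WT replicate 2, the Meis2 loss became 4 without WT replicate 2, and the Mn1 losses became 5 without Flt3-ITD replicate 2. With lists of equal length, with the 50 kb limit and inside the gene, the Mn1 losses were 0. DM gained 5 regions against WT (3 at Mn1, 2 at Pbx3; 6.93% of all) and lost 10 (6 at Meis1, 3 at Mn1, 1 at Pbx3; 20.9% of all). With lists of equal length, the balance turned to 9 gained and 4 lost. The Meis1 losses in DM became 1 with lists of equal length, the Mn1 gains became 5 without DM replicate 1, and Meis2, with no loss in the main count, had 3 without WT replicate 2.

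Against Flt3-ITD, DM gained 5 regions (2 at Meis1, 2 at Mn1, 1 at Pbx3; 10.6% of all) and lost 0 (3.44% of all). The Meis1 gains were chr11:18996782-18997139, described above, and chr11:18883508-18884273. The Meis1 gains became 5 without DM replicate 1 and 5 without DM replicate 2, and the Mn1 gains became 5 when Flt3-ITD replicate 2 was left out and 4 without DM replicate 1. In all, 31 of the 64 regions changed in at least 1 of the 5 comparisons, 12 at Meis1, 5 at Meis2, 3 at Pbx3 and 11 at Mn1. Loss in all 3 mutants against WT was seen for 1 region at Meis1 and 2 at Mn1, and for 3.02% of all regions. The comparisons share the WT, Npm1c, Flt3-ITD or DM libraries, so their counts are not independent.

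**Figure D4:**
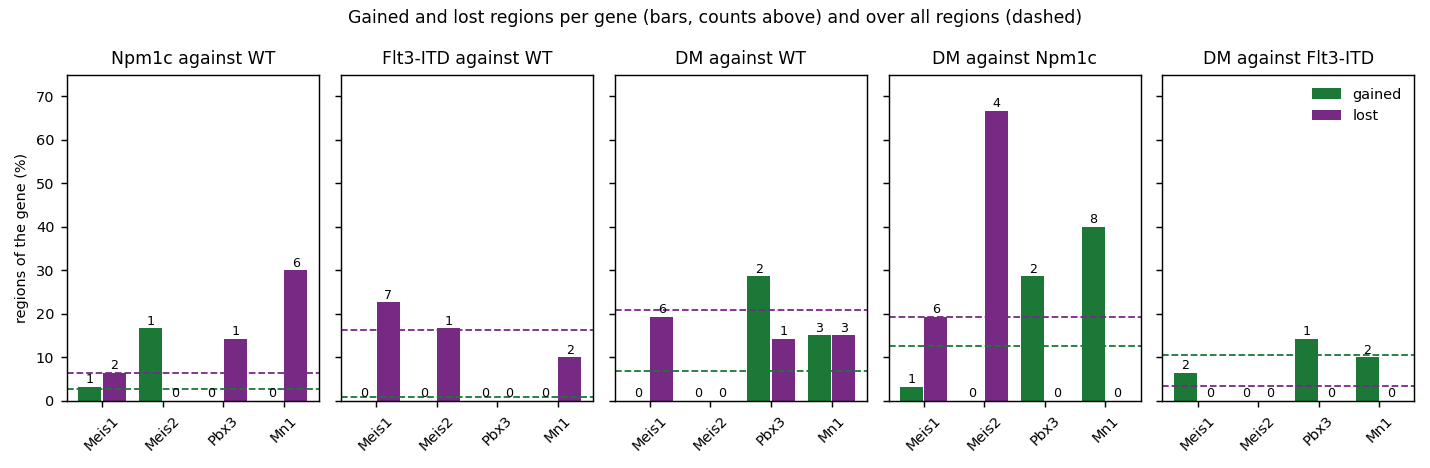
Percentage of each gene's regions gained (green bars) and lost (purple bars) in the 5 comparisons, with the number of regions above each bar and dashed lines of the same colours at the percentages over all regions of the series. In DM against Npm1c the Mn1 bar is all gain (8 regions) and the Meis2 bar all loss (4 regions).

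The 4 Meis1 regions above were the only ones among the 64 with a full pattern by allele. A region called in none of the 4 libraries with the Flt3-ITD allele and in all 4 without it was found for 4 of 64 members and for 8.38% of all regions, and the opposite for 0 members and 0.566% of all. For the Npm1c allele with Mx1-Cre, 0 members were called with it only (0.156% of all) and 0 without it only (0.204%). Fisher's exact test, two-sided, over 4 libraries against 4 gave the smallest p it can give, 0.0286, for each of the 4 Meis1 regions, with a Benjamini-Hochberg adjusted p of 0.320 over all 103446 regions. At an adjusted p under 0.05 the test called 0 regions of the series for either allele (0% of all), and at an unadjusted p under 0.05 it called 9250 for Flt3-ITD and 372 for Npm1c. The 4 Meis1 regions therefore did not pass the test after adjustment. With 0.0286 as its smallest p, the test could call a region only if most regions of the series had a full pattern. The absence of calls therefore decides nothing about these 4 regions or any other.

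Peak width was compared for the 12 member regions, 7 at Meis1, 2 at Pbx3 and 3 at Mn1, that were called in all 8 libraries. Covered bases were compared on a log2 scale after centring each library on its median, with limma and adjusted p-values over the 26169 regions of the series called in all 8. Below Meis1, chr11:18875258-18879282 had 1262 and 1106 bases in DM, 1091 and 1103 in Flt3-ITD, 3427 and 4025 in Npm1c, and 3126 and 2101 in WT. All 4 DM and Flt3-ITD values lay below every Npm1c and WT value. It was narrower in DM than in Npm1c (log2 fold -1.52 ± 0.16 SE, limma adjusted p = 0.000266) and in DM than in WT (-0.79 ± 0.16, limma adjusted p = 0.00688), and both calls held in all alternatives run. In Flt3-ITD against WT the fold was -0.76 ± 0.16 (limma adjusted p = 0.0298) and in Npm1c against WT 0.73 ± 0.16 (limma adjusted p = 0.0256). The first of these passed 0.05 no longer without either Flt3-ITD replicate (adjusted p 0.119 and 0.0792) or either WT replicate (0.0701 and 0.0737). The second did not pass without Npm1c replicate 1 (0.0753), Npm1c replicate 2 (0.12), WT replicate 2 (0.0956) or centring (0.159).

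At Mn1, chr5:111414033-111414646, just below the gene, had 459 and 468 bases in DM, 354 and 362 in Flt3-ITD, 271 and 306 in Npm1c, and 614 and 411 in WT. Npm1c was lowest, with no overlap with another genotype. It was wider in DM than in Npm1c (0.82 ± 0.14, limma adjusted p = 0.00259), a call that held in all alternatives run, and narrower in Npm1c than in WT (-0.61 ± 0.14, limma adjusted p = 0.0334). The second call was lost uncentred (limma adjusted p = 0.0557), without either Npm1c replicate (0.145 and 0.102), without WT replicate 1 (0.102) and without either DM replicate (0.0519 each). The difference between the Flt3-ITD effect on the Npm1c background (DM minus Npm1c) and the one on the WT background was 0.84 ± 0.20 (limma adjusted p = 0.0388). It passed in 2 of 10 alternatives, the replicate block and without WT replicate 2, and gave adjusted p-values of 0.0575 to 0.117 in the others.

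Further calls concerned Meis1. Inside the gene, chr11:19007603-19008443 had 349 and 274 bases in DM, 272 and 643 in Flt3-ITD, 669 and 770 in Npm1c, and 796 and 726 in WT. It was narrower in DM than in WT (-0.97 ± 0.30, limma adjusted p = 0.0324) and than in Npm1c (-1.09 ± 0.30, limma adjusted p = 0.0178), and both calls were lost without DM replicate 2 (0.152 and 0.0954). The first was also lost without WT replicate 1 (0.088) or 2 (0.137), and the second without Npm1c replicate 1 (0.0546) or 2 (0.0759). The promoter region was narrower in DM than in Npm1c (-0.39 ± 0.12, limma adjusted p = 0.0273), a call lost without any 1 of the DM and Npm1c libraries (0.0856 to 0.125). For it, Npm1c against WT gave 0.38 ± 0.12 (limma adjusted p = 0.0697). DM against WT gave -0.008 ± 0.12 (limma adjusted p = 0.965) and Flt3-ITD against WT -0.28 ± 0.12 (limma adjusted p = 0.143). Inside the gene, chr11:18948647-18949393 had 458 and 455 bases in DM, 252 and 348 in Flt3-ITD, 596 and 616 in Npm1c, and 688 and 609 in WT, and was narrower in Flt3-ITD than in WT (-0.67 ± 0.13, limma adjusted p = 0.0249; 0.137 without Flt3-ITD replicate 1 and 0.112 without WT replicate 2). It was wider in DM than in Flt3-ITD (0.49 ± 0.13, limma adjusted p = 0.0428), a call that held in 2 of 10 alternatives, those without a WT replicate, and gave 0.0512 to 0.179 in the others. Above the gene, chr11:19026709-19027619 had 758 and 724 bases in DM, 410 and 285 in Flt3-ITD, 638 and 640 in Npm1c, and 852 and 663 in WT, and was wider in DM than in Flt3-ITD (0.98 ± 0.21, limma adjusted p = 0.0224). Without DM replicate 1, DM replicate 2 or Flt3-ITD replicate 2 its adjusted p was 0.0924, 0.068 and 0.0664.

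Of the 12 regions, 1 was wider and 1 narrower in Npm1c against WT (6.9% and 5.01% of all 26169), 0 and 2 in Flt3-ITD against WT (5.41% and 4.25%), and 0 and 2 in DM against WT (21.5% and 16.5%). In DM against Npm1c 1 was wider and 3 narrower (20.5% and 24.3% of all), and in DM against Flt3-ITD 2 and 0 (4.26% and 7.64%). For the difference between the Flt3-ITD effects, 1 was positive and 0 negative, where 2.56% and 7.17% of all regions were. The median log2 fold of the 12 was 0.04 in Npm1c against WT (0.12 over all regions), -0.17 in Flt3-ITD against WT (0.12), and 0.03 in DM against WT (0.05). It was -0.04 in DM against Npm1c (-0.01) and 0.14 in DM against Flt3-ITD (-0.06). Uncentred, the median over all regions was -0.34 in Flt3-ITD against WT and -0.27 in DM against WT. In that setting 6 and 5 of the 12 member regions were narrower, where 28.5% and 34.2% of all regions were. The members' median uncentred was -0.16 in Npm1c against WT, -0.64 in Flt3-ITD against WT and -0.29 in DM against WT, so the sign of the first and the last depended on the centring. The p-values rest on the spread between the 2 libraries of a genotype, pooled over the 4 genotypes. In limma that spread is also drawn towards the one of all 26169 regions. They measure no more than this.

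**Figure D5:**
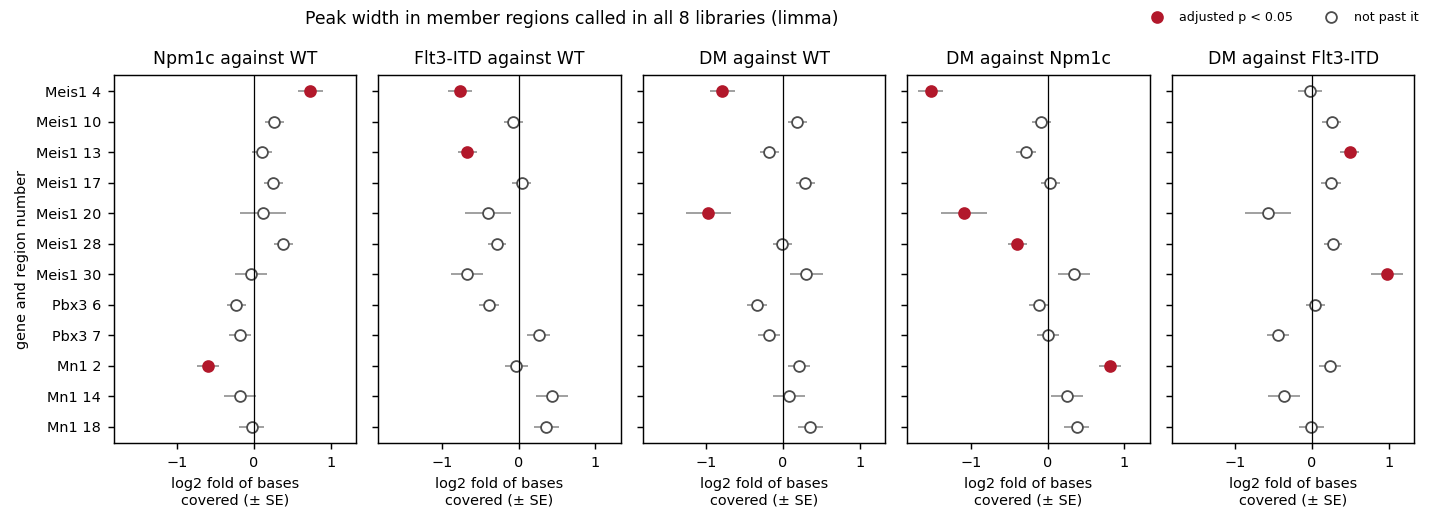
Log2 fold of covered bases (± SE, limma) for the 12 member regions called in all 8 libraries, in 5 comparisons, with filled red points where the adjusted p is under 0.05. The Meis1 region below the gene lies at -1.52 in DM against Npm1c, and the Mn1 region below its gene at 0.82.

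Other genes had call patterns close to those of the members, measured as the mean absolute difference between the percentages of own regions called over the 8 libraries, among genes with at least 10 regions. For Mn1 the 3 closest of 2849 genes were Smad6 (4 percentage points), Kdm2b (4.24) and Dab2ip (4.43), against a median of 20.5 over all genes. Smad6, with 25 regions, had 14 and 15 called in DM, 10 and 14 in Flt3-ITD, 5 and 7 in Npm1c, and 18 and 14 in WT, which puts its lowest counts in Npm1c as at Mn1. For Meis1 the closest were Etnk1 (4.33), Man2a1 (4.47) and Myo5c (4.57), with a median of 17.2, and for Pbx3 Col27a1 (4.88), Vdr (5.46) and Rnf157 (6.55), with a median of 23.4. For Meis2, whose 6 regions give coarse percentages, they were Plcb1 (9.25), Lgr4 (9.28) and Adgrl4 (10.4), with a median of 30.9.

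The Hoxa and Hoxb clusters, whose proteins the MEIS and PBX members partner, had 40 regions at 15 of 21 genes. Of these, 3 (7.5%) were lost in Flt3-ITD against WT, where 16.2% of all regions were lost. In DM against WT 4 were lost (10%, against 20.9%) and 2 gained (5%, against 6.93%). In Npm1c against WT 3 were lost (7.5%, against 6.26%) and 2 gained (5%, against 2.71%), 1 at Hoxa9 and 1 at Hoxa10. Hoxa9, the HOX gene most often paired with Meis1 in leukaemia, had 3 and 3 of its 5 regions called in DM, 2 and 2 in Flt3-ITD, 3 and 4 in Npm1c, and 2 and 2 in WT.

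A list named for the menin and MLL complex, which binds HOX and Meis1 promoters, had 103 regions at 9 genes. It held Men1, Kmt2a and Psip1 of that complex beside Dot1l, Mllt1, Mllt3, Mllt10, Aff1 and Aff4. Of its regions 18 were lost in Flt3-ITD against WT (17.5%, against 16.2% of all regions) and 23 in DM against WT (22.3%, against 20.9%). In DM against Npm1c 29 were lost (28.2%, against 19.3%), of which Mllt3 had 14, Aff1 13, and Men1, Kmt2a and Psip1 0. In Npm1c against WT 5 were gained (4.85%, against 2.71%), 4 at Mllt3 and 1 at Aff1. Men1, which encodes menin, had all 3 of its regions called in every library. Genes reported to respond to HOXA9 and MEIS1 had 256 regions at 11 genes, with 46 lost in Flt3-ITD against WT (18.0%), 55 in DM against WT (21.5%) and 56 in DM against Npm1c (21.9%), all near the 16.2%, 20.9% and 19.3% of all regions. Gains were 24 (9.38%) in DM against Npm1c and 20 (7.81%) in DM against Flt3-ITD, against 12.6% and 10.6% of all regions. Trib2, a pseudokinase gene that is among them, had 1 and 1 of its 8 regions called in DM, 1 and 1 in Flt3-ITD, 7 and 7 in Npm1c, and 6 and 6 in WT. Id2, an inhibitor of basic helix-loop-helix factors on the same list, ran the other way between DM and Npm1c, with 15 and 16 of 18 in DM, 10 and 10 in Flt3-ITD, 8 and 9 in Npm1c, and 14 and 7 in WT. Flt3, whose own duplication the study uses, had 10 and 16 of 18 called in DM, 10 and 9 in Flt3-ITD, 11 and 10 in Npm1c, and 10 and 9 in WT, with DM replicate 2 above all others. The genes named from these lists were picked after their values were seen.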

How the data were processed

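ATAC-seq peaks of 8 HSPC libraries were analysed, 2 per genotype, grouped by their titles. A further 2 samples, of WT neutrophils, are not analysed here. The submitters' processing notes name Bowtie2, MACS2 and mm10; no source used here gives versions, thresholds, the Tn5 shift or duplicate removal. The lists deposited by the authors, 1 per library, hold 3 columns per peak (chromosome, start, end) and no height, score or read count, so a peak has only presence and width. A longer list can come from more reads or more open chromatin. Peaks on chromosomes 1 to 19 and X were merged (1 bp shared) and assigned to 21631 protein-coding genes of RefSeq GRCm38.p6. Strand and exons are lacking from that table, so gene ends are given by coordinate.

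Gained and lost regions were counted without a test. The 4 against 4 allele contrasts used Fisher's exact test with Benjamini-Hochberg adjustment over all 103446 regions (scipy 1.17.1, Python 3.11.15). The width test (limma 3.58.1, R 4.3.3), log2 of the bases covered, and its alternatives were chosen after seeing the data; both tests were tested on simulated data. Regions named singly overlap a gene end, have the widest peaks of a gene, changed in 2 or more comparisons, have a full allele pattern or passed the width test (the last added after seeing values, as were chr11:18957057-18958230, chr11:18883508-18884273 and the remaining Meis2 regions). The members and lists were chosen with earlier results of these data known. The results for other TALE-class genes are not reported here.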

Additional observations from a re-analysis of the deposited data

Results flagged for a closer look

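At Mn1, bases covered were 3215.5 higher in DM than in Npm1c (difference of means), with every DM library above every Npm1c library, and differed by -1962.5 between Flt3-ITD and WT. The opposite signs hold for unscaled bases only. Per Mb of covered sequence, Flt3-ITD (181 and 194) lay above WT (155 and 158), as DM (192 and 198) did above Npm1c (77.9 and 68.7). This difference of effects was not tested for the gene as a whole. For the region chr5:111414033-111414646 it was tested, with a difference of 0.84 on the log2 scale (limma adjusted p = 0.0388), and Flt3-ITD against WT was -0.03 ± 0.14 there. At Pbx3, bases covered differed by 784 between DM and Npm1c and by -722.5 between Flt3-ITD and WT, and the number of regions called differed by 2 between DM and Flt3-ITD and by -1 between Npm1c and WT. Neither was tested, and per Mb of covered sequence Pbx3 in Flt3-ITD (94.2 and 106) lay above WT (71.6 and 82.3). Among the 4 Flt3-ITD and DM libraries, Flt3-ITD replicate 1 stood apart at Pbx3 with 2280 bases, against 3143 to 3160 in the others. This holds for unscaled bases only. Per Mb of covered sequence it had 94.2, within the 92.7 to 106 of the others. Of 32 groups of 4 libraries examined for a library that stands apart, chance flags about 5%.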

How the results depend on the processing

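Peak lists without read counts, 2 libraries per genotype and lists of unequal length limit all counts. Lists of equal length (the 43794 widest peaks of each) gave, over the 4 genes, 3 lost in Npm1c against WT, 1 gained and 2 lost in Flt3-ITD against WT, 9 gained and 4 lost in DM against WT, 6 lost in DM against Npm1c, 8 gained and 1 lost in DM against Flt3-ITD, 1 called only with and 2 only without the Flt3-ITD allele, and 1 called only with the Npm1c allele. Regions inside the gene only gave 0 gained and 2 lost in Npm1c against WT, 2 gained in DM against WT and 3 gained in DM against Npm1c, and a 50 kb limit gave 5 lost in Npm1c against WT. Without peaks under 250 bp there were 0 gained in Npm1c against WT, 1 gained in Flt3-ITD against WT, 9 gained and 1 lost in DM against Flt3-ITD, and 1 called only with the Flt3-ITD allele. Leaving out each library in turn gave 2 to 7 gained in Npm1c against WT, 0 to 2 gained and 10 to 20 lost in Flt3-ITD against WT, 5 to 10 gained and 10 to 17 lost in DM against WT, 11 to 17 gained and 10 to 18 lost in DM against Npm1c, 5 to 11 gained and 0 to 3 lost in DM against Flt3-ITD, 0 to 2 only with and 4 to 8 only without the Flt3-ITD allele, and 0 to 1 only with and 0 to 2 only without the Npm1c allele. Without a library of a compared genotype the rule asks for fewer libraries, so these counts could only stay or rise unless merging changed. They do not show how stable the main counts are. Merging peaks within 100 bp moved no such count by over 1.5 times. Of member regions, the width test passed, uncentred, 0 in Npm1c against WT, 6 in Flt3-ITD against WT, 5 in DM against WT, 1 in DM against Flt3-ITD and 0 for the difference of effects, where 28.5% of all regions were narrower uncentred in Flt3-ITD against WT and 34.2% in DM against WT. With 1 library left out it passed 0 to 2, 0 to 2, 1 to 2, 0 to 2 and 0 to 2 in the same order, and 2 to 5 in DM against Npm1c. The cause was not tested. Replicate numbers did not pair the libraries (correlation of same-numbered deviations between genotypes -0.0399 to 0.0387), and the replicate block gave p = 0.0556 in place of 0.0286 for a full allele pattern (exact permutation over 36 arrangements), 1 width call in DM against Flt3-ITD and 2 for the difference of effects. No tested call changed sign, but the balance of gains and losses in DM against WT turned with lists of equal length, and the members' median width fold turned sign uncentred in Npm1c against WT (0.04 to -0.16) and in DM against WT (0.03 to -0.29).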
